A study of Caenorhabditis elegans with 2 samples.

Results

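The genes examined here encode the factors that start and extend protein chains and the enzymes that charge tRNAs with amino acids. They were taken by name from the WBcel235 annotation: every protein-coding gene called eif- (initiation factors) or eef- (elongation factors), and every gene whose name is 1 letter followed by ars-1 or ars-2 (aminoacyl-tRNA synthetases). This gave 62 of the 19973 protein-coding genes on the nuclear chromosomes, with 25 for initiation, 6 for elongation and 31 for charging. No measured value entered the choice of names.

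The measurement was chromatin immunoprecipitation followed by sequencing (ChIP-seq), which recovers the DNA bound by a chosen protein, for CES-1, a zinc finger factor of the Snail family. Both libraries came from whole mixed-stage embryos of Caenorhabditis elegans strain OP174, of pooled sexes and unknown age. Their unc-119(ed3) background carried the transgene wgIs174, which holds ces-1 with TY1, EGFP and FLAG tags together with unc-119. The antibody label names ces-1 alone, while the description of both libraries gives ChIP-seq against eGFP-ces-1. The libraries were labelled biological replicates 1 and 2 and formed a single group, so no comparison with untagged, mutant or input chromatin was made here. Whole embryos mix all cell types, so binding in few cells and weak binding in many cannot be told apart.

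Protein synthesis begins when eIF2 brings the initiator tRNA to the small ribosomal subunit, eIF3 holds the assembly together, and eIF1 and eIF1A help to find the start codon. eIF2B then recharges eIF2 with GTP. In elongation, eEF1A delivers each charged tRNA, the eEF1B complex recharges eEF1A, and eEF2 moves the ribosome along the messenger. Animal cells keep separate synthetases for the cytosol and for mitochondria in many cases, while some genes serve both compartments. Growing cells need all of these activities.

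The list of 6290 pooled peaks that passed the authors' irreproducible discovery rate (IDR) step held 6273 peaks on nuclear chromosomes. The deposited signal of the 6290 ran from 58.7 to 3177 around a median of 119.3, on a scale that is not stated. A gene is called occupied below when a peak summit fell in its promoter window, which begins 1000 bp before an annotated 5′ end and stops 200 bp after it. With 1 group and members picked with earlier results of these data known, shares are given beside that of all genes and were not tested.

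Summits stood in front of about as many of these genes as not. Of the 62 genes 32 were occupied, or 51.6% (exact 95% interval 38.6 to 64.5, counting error only), where 16.2% of all protein-coding genes were. The share was 15 of 25 for initiation, or 60% (interval 38.7 to 78.9), and 5 of 6 for elongation, or 83.3% (interval 35.9 to 99.6). It was lower for charging, with 12 of 31, or 38.7% (interval 21.9 to 57.8), but these 3 intervals overlap one another. A summit among the strongest 20% of nuclear peaks stood at 9 of the 62 genes, or 14.5%, where 3.66% of all protein-coding genes had one. This gap in large part repeats the one in occupancy, since among occupied genes alone it was 9 of 32 against 731 of 3229.

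The signals of the 3 roles overlapped. The strongest promoter summit of an occupied gene had a median signal of 156.8 for initiation, 139.2 for elongation and 143.2 for charging, and 149.7 over all 32. Over all 3229 occupied protein-coding genes this median was 131.4. Each role held strong and weak summits: from 61.9 to 539.9 for initiation, from 89.5 to 408.3 for elongation and from 62.4 to 411.6 for charging.

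**Figure D1:**
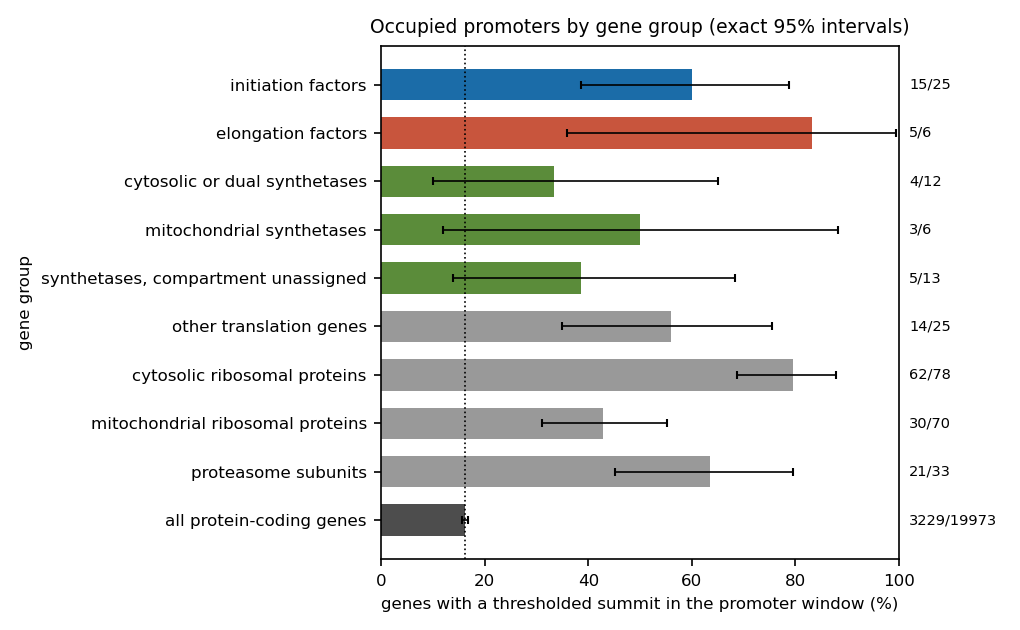
Share of genes with a thresholded summit in the promoter window (horizontal axis, %) for each gene group; bars are shares, black lines exact 95% binomial intervals, the dotted line the share of all protein-coding genes, and the numbers at the right the occupied genes of all genes in the group. Initiation stands at 60%, elongation at 83.3%, cytosolic or dual synthetases at 33.3% and mitochondrial synthetases at 50%, against 16.2% for all genes.

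The summits of these genes lay much where promoter summits lay in general. The 32 genes had 36 summits in 35 peak intervals, and 4 genes had more than 1 summit. Of the 36, 28 were intergenic, or 77.8%, against 72.5% of all 2778 promoter summits. Another 5 were in introns, or 13.9% against 16.8%, 3 in untranslated exons, or 8.33% against 8.57%, and 0 in coding exons, against 2.12%. Upstream of the 5′ end lay 34, or 94.4% against 93.1%, at a median of 251.5 bp over all 36, close to the 249 bp of all 3576 pairs of a gene and a promoter summit. At 10 of the 15 occupied initiation genes the strongest summit lay 200 to 400 bp upstream, at 3 of the 12 synthetase genes and at 1 of the 5 elongation genes. Together these were 14 of 32, or 43.8%, where the figure was 28.6% over all occupied genes. The difference was smaller in a wider band that counted every summit. There, 100 to 400 bp upstream, lay 19 of the 36, or 52.8%, against 48.6% of the 3576 pairs. Neither difference was tested.

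**Figure D2:**
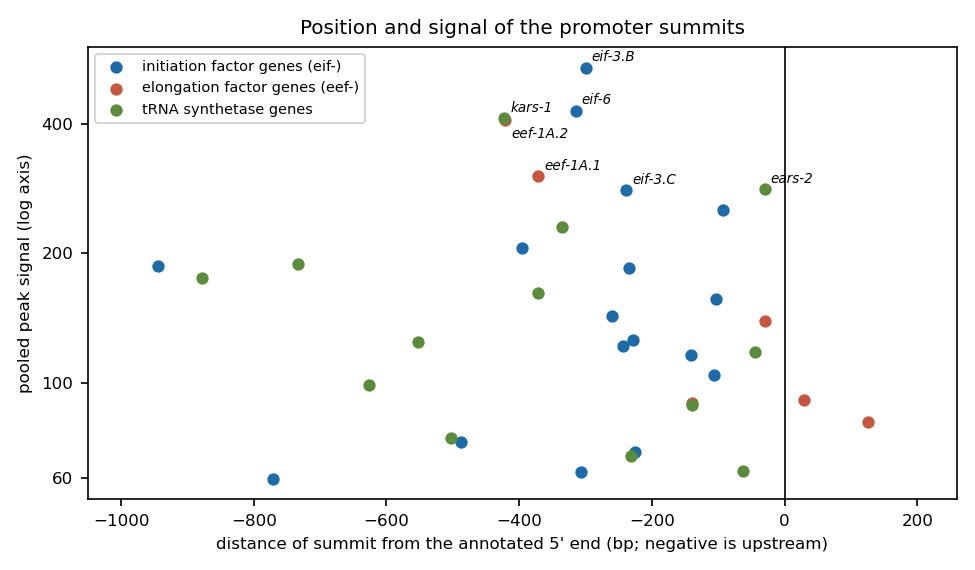
Distance of each promoter summit from the annotated 5′ end (horizontal axis, bp, negative upstream) and its pooled signal (vertical axis, log scale), 1 point for each of the 36 summits, coloured by role. The strongest points are named, and eif-3.B is the highest at 539.9; only 2 summits, both of elongation genes, lie downstream of the 5′ end.

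The DNA under some of these summits is shown for the strongest initiation and charging sites, for elongation genes and for summits that share the short word GCGCAT. Each line is the 101 bases centred on the strongest summit of the gene, 5′ to 3′ on the strand of the gene, from the WBcel235 reference, and holds no annotated protein-coding exon. Capitals mark GAGAGA or GCGCAT, or their reverse complements TCTCTC and ATGCGC. The windows are chrII:14795054-14795154 (plus strand) for eif-3.B, chrII:7072788-7072888 (minus) for kars-1, chrX:7823183-7823283 (plus) for eef-1A.2, chrIII:6972033-6972133 (minus) for eef-1A.1, chrIV:15037142-15037242 (plus) for eef-1B.2, chrII:6967704-6967804 (minus) for eif-2Bgamma and chrIV:10367999-10368099 (plus) for iars-1.
eif-3.B: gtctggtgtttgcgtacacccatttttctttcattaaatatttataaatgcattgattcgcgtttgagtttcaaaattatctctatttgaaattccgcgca
kars-1: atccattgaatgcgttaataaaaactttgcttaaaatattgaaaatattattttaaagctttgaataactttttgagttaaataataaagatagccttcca
eef-1A.2: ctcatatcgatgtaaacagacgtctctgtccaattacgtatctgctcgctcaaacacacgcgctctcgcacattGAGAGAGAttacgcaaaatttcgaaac
eef-1A.1: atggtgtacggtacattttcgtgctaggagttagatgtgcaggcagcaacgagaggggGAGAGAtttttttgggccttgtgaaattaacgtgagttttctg
eef-1B.2: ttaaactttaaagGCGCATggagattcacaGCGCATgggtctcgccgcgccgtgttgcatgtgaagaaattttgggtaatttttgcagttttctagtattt
eif-2Bgamma: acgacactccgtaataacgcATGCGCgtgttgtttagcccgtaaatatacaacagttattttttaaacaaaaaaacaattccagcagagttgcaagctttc
iars-1: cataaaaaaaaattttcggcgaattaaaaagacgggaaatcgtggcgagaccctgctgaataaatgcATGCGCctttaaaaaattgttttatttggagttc

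No copy of the Snail-type E-box CAGGTG, on either strand, lay within 50 bp of any of the 36 summits, where 1.80% of the 2778 promoter summits of the whole list had one. The palindrome CACGTG, the E-box of many basic helix-loop-helix factors, was likewise at 0 of 36, against 2.05%. GAGAGA was present at 6 of 36, or 16.7%, against 22.5% of all promoter summits, and both eEF1A genes were among the 6. With shares this low in the whole list, their absence from 36 windows says only that the letters are not there. The word GCGCAT was searched only after the sequences had been read, and stood at 8 of 36, or 22.2%, against 6.34% of all promoter summits and 4.59% of all 6273 summits. Those 8 belonged to ears-2, eef-1B.1, eef-1B.2, eif-2Bgamma, eif-2beta, eif-2gamma, iars-1 and vars-1. The windows had a median GC content of 38.6%, from 21.8% to 58.4%, against 41.6% at all promoter summits.

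Among initiation genes, the largest complex is eIF3. In it 7 of the 11 subunit genes named eif-3. were occupied, and these included the strongest summit of all 62 genes. At eif-3.B, a core scaffold subunit, the signal was 539.9 in the pooled list (rank 194), 262.1 in replicate 1 and 278.1 in replicate 2, at 300 bp upstream. At eif-3.C, another core subunit, it was 280.1, with 154.1 and 128.7 in the replicates, at 239 bp upstream (chrI:9979799-9980007). At eif-3.J, a loosely bound subunit, it was 186.4, with 108.7 and 81.3 (peak chrI:13434469-13434611 on ce11). The other 4 had 184.7 at eif-3.H, 125.6 at eif-3.I, 121.4 at eif-3.E and 61.9 at eif-3.G. The pooled signals of eif-3.B and eif-3.G lay much further apart than the replicates at either gene.

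Position set eif-3.J apart within the complex. Its summit lay 944 bp upstream, near the edge of the window, in an untranslated exon that is not part of eif-3.J. The upstream neighbour slc-25A46 ends 877 bp before eif-3.J, so the summit lay within the span of that neighbour. The strongest summits of the other 6 occupied subunit genes lay 228 to 307 bp upstream. A second, weaker summit of eif-3.I (72.7) fell in an intron, 488 bp upstream of an inner 5′ end. The genes eif-3.D, eif-3.F, eif-3.K and eif-3.L had no thresholded summit in the window and no entry there in the relaxed list of 30000 pooled peaks either. The eIF3 subunits a and m carry other names in the worm, egl-45 and cif-1, and neither was occupied; both were looked up after the values had been seen.

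eIF2 and its exchange factor eIF2B were each occupied in part. For eIF2, which carries the initiator tRNA, the GTP-binding subunit gene eif-2gamma had a signal of 252.6, with 135.2 in replicate 1 and 116.8 in replicate 2, at 92 bp upstream (peak chrI:2313106-2313306). The gene eif-2beta had a much weaker summit of 69.0 (34.0 and 38.5 in the replicates), in an intron 225 bp upstream of an inner 5′ end. The third subunit gene, eif-2alpha, whose product is the phosphorylation switch of general translation control, had none.

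Among the 5 eIF2B subunits the signals were close together. They were 156.8 at eif-2Balpha, 116.2 at eif-2Bbeta and 104.3 at eif-2Bgamma, 103 to 141 bp upstream, while eif-2Bdelta and eif-2Bepsilon had no entry in the window in either list. The replicates differed most at eif-2Balpha, with 62.3 in replicate 1 and 102.3 in replicate 2, a log2 ratio of 0.72. The signal of eif-2Balpha was above that of eif-2Bgamma in both replicates, whereas it was below that of eif-2Bbeta (67.0) in replicate 1 and above it (51.1) in replicate 2. A second summit of eif-2Bgamma (59.9, 771 bp upstream) sat just above the weakest peak of the list and had no match in replicate 2.

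The remaining initiation genes ranged from among the strongest to none. The gene eif-6, whose product keeps the large ribosomal subunit from joining too early, had a signal of 428.5, with 211.5 and 213.7 in the replicates, at 315 bp upstream (chrI:12968507-12968819). At eif-1, for start codon selection, it was 205.3, with 93.4 and 108.8, at 395 bp upstream (chrII:4993911-4994082), and at eif-2A, an alternative carrier of initiator tRNA, 142.6, with 78.5 and 65.8. The partner of eif-1 in start codon selection, eif-1.A, had no promoter summit, although 1 thresholded summit lay inside the gene, 917 bp from the 5′ end. The genes eif-2D and eif-4A3, the latter a helicase of the exon junction complex in spite of its name, were not occupied, with relaxed entries of 38.1 and 48.6.

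**Figure D3:**
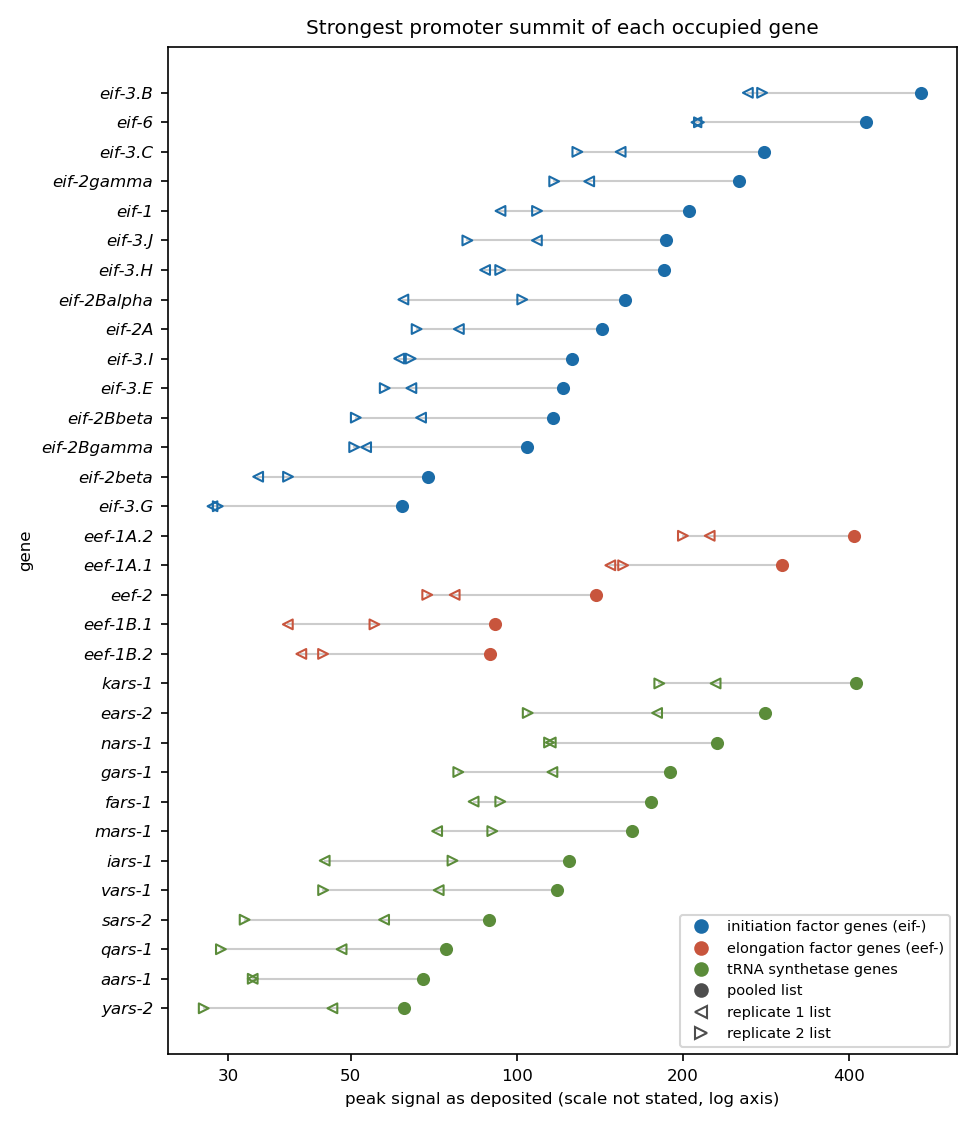
Signal of the strongest promoter summit of each of the 32 occupied genes (horizontal axis, log scale, deposited units), with filled circles for the pooled list and open triangles for the replicate lists; genes are sorted by pooled signal within each role. Pooled values run from 61.9 at eif-3.G to 539.9 at eif-3.B and lie above both replicate values at every gene.

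Both genes for eEF1A had strong summits. At eef-1A.2, on the X chromosome, the signal was 408.3 (rank 358), with 223.5 in replicate 1 and 199.9 in replicate 2, at 421 bp upstream and in the window of no other protein-coding gene. At eef-1A.1, on chromosome III, it was 301.6, with 147.7 and 155.7, at 371 bp upstream, in a window shared with the replication factor gene rfc-4. In each replicate eef-1A.2 was the higher of the pair.

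The exchange factors and eEF2 were weaker. The genes eef-1B.1 and eef-1B.2, for the nucleotide exchange subunits, had signals of 91.1 (38.5 and 55.2 in the replicates) and 89.5 (40.7 and 44.6), and the genes differ by less than the replicates do. The summit of eef-1B.1 lay 29 bp downstream of the 5′ end, in an untranslated exon (chrIII:7973162-7973551), and that of eef-1B.2 139 bp upstream. The gene eef-2 had 2 summits, 139.2 at 29 bp upstream and 81.0 at 126 bp downstream in an intron. The replicates gave 77.1 and 68.8 at the first of them, and 29.8 and 38.1 at the second. The gene of the gamma subunit, eef-1G, was the only elongation gene without a summit, and had no relaxed entry.

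Among synthetases, 18 of the 31 genes could be placed in a compartment, by RefSeq product name for 14 and by textbook knowledge for 4; the other 13 were left unassigned. Of the 12 cytosolic or dual genes 4 were occupied, or 33.3% (interval 9.92 to 65.1), and of the 6 mitochondrial genes 3, or 50% (interval 11.8 to 88.2). The intervals cover most of the scale, so the compartments cannot be ranked. Of the unassigned genes 5 were occupied, or 38.5% (interval 13.9 to 68.4). The strongest summits had a median signal of 168.4 for the cytosolic or dual genes and 118.1 for the mitochondrial ones, with ranges of 124.5 to 230.2 and 67.7 to 281.7 that overlap.

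The occupied cytosolic or dual genes charge asparagine, phenylalanine, methionine and isoleucine. At nars-1, for asparagine, the signal was 230.2, with 115.2 and 114.4 in the replicates, at 335 bp upstream (chrI:7090202-7090591). At fars-1, the catalytic subunit for phenylalanine, it was 174.9, with 83.5 and 93.3. However, the summit lay 878 bp upstream, in an untranslated exon that is not part of fars-1 (chrI:6215498-6215653). At mars-1, for methionine, it was 161.9, with 71.7 and 90.2, at 371 bp upstream (chrIV:11635762-11635893). The weakest, iars-1 for isoleucine, had 124.5 at 552 bp upstream and differed most between the replicates, with 44.9 and 76.4.

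The mitochondrial genes spanned a wider range of signal. At ears-2, for glutamate, the pooled signal was 281.7 at 30 bp upstream (chrIV:390354-390604), with 179.5 in replicate 1 and 104.6 in replicate 2. The other occupied genes were vars-1 for valine, with 118.1 (72.2 and 44.6 in the replicates), and aars-1 for alanine, with 67.7 and 33.2 in each replicate. The genes lars-2, pars-2 and rars-2 had no thresholded summit.

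Of the genes left unassigned, kars-1, which charges lysine, had the strongest synthetase summit of all, with a signal of 411.6 (rank 352) at 423 bp upstream. The replicates gave 229.1 and 181.1, and a second summit in the same interval, 626 bp upstream, had 98.7. At gars-1, for glycine, the signal was 189.2, with 116.0 and 78.3, in an intron between the annotated 5′ ends of the gene, 734 bp upstream of the inner one (chrIII:5162944-5163041). The rest were weak, with 88.8 at sars-2 for serine, 74.5 at qars-1 for glutamine and 62.4 at yars-2 for tyrosine.

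Replicate 2 was the lower at 8 of the 12 strongest synthetase summits, while over the whole list 3749 of 5928 summits were higher in replicate 2; the difference was not tested. The log2 ratio of its signal to that of replicate 1 had a median of −0.45 over the 12, and of 0.01 for initiation, where 7 of 15 were below 0. Over the 5928 summits the median was 0.15. As the scale of the lists is not stated, a ratio of 0 need not mark equal binding. The synthetases did not go 1 way: the ratio was below 0 at 5 of 5 unassigned and 2 of 3 mitochondrial genes, but above 0 at 3 of 4 cytosolic or dual genes, with a median of 0.25. At sars-2, ears-2, yars-2, qars-1 and vars-1 it was −0.84, −0.78, −0.77, −0.73 and −0.70. Over all summits of the genes described here its SD was 0.43. Taken alone, the strongest 6290 peaks of replicate 2 left out sars-2, qars-1 and yars-2.

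For 11 amino acids the list held a pair of genes, numbered 1 and 2. In 0 of the 11 pairs were both genes occupied, in 7 a single one was, and in 4 neither. With 38.7% of the 31 synthetase genes and 16.2% of all protein-coding genes occupied, 11 pairs are too few to read the 0 as a rule. It was not tested. The occupied ones were aars-1, ears-2, fars-1, iars-1, nars-1, sars-2 and yars-2, and the pairs with none were those for aspartate, leucine, proline and arginine. For proline and arginine, the strongest peaks of a single replicate did call a gene, pars-2 and rars-1. The number does not give the compartment, since aars-1 is the mitochondrial and aars-2 the cytosolic enzyme for alanine. For valine, the cytosolic gene is named glp-4 and lay outside the naming rule; looked up afterwards, it had a signal of 95.3, beside 118.1 at vars-1.

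The 19 synthetase genes with no thresholded summit were aars-2, cars-1, dars-1, dars-2, ears-1, fars-2, hars-1, iars-2, lars-1, lars-2, nars-2, pars-1, pars-2, rars-1, rars-2, sars-1, tars-1, wars-1 and yars-1. In the relaxed list, which holds background as well as peaks, 41 of the 62 genes had an entry in the window, or 66.1%, where 34% of all protein-coding genes did. Of the 30 genes without a thresholded summit 9 had only such an entry and 21 had none. Nearest to the limit were aars-2, with a signal of 52.6 (rank 6872), and cars-1, with 50.6 (rank 7113). Just inside it were eif-3.G with 61.9 and yars-2 with 62.4, at ranks 6031 and 6002.

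The thresholded list holds pooled peaks that passed IDR, a step that scores how well replicates agree, and the pool held the same 2 replicates. The strongest promoter summit of every occupied gene had the same signal rank in the thresholded and relaxed pooled lists. Not every thresholded summit had a match in each replicate, as the second summit of eif-2Bgamma shows. Finding summits of the thresholded list in both replicate lists, at similar values, was still largely set in advance. Of the 36 summits 35 were found in both replicate lists, or 97.2%, against 94.5% of all nuclear summits, which passed the same step. Between the lists the log2 ratio, replicate 2 over 1, had a median of 0.00021 and an SD of 0.43 over the 35, against 0.15 and 0.57 over all 5928 summits found in both. It ran from −0.84 to 0.80. Among the 6290 strongest peaks of each replicate taken alone, 32 genes were occupied in replicate 1 and 29 in replicate 2, with 28 in both. The pooled call at eif-3.G was made in neither. Conversely, pars-2 was called in replicate 1 alone and rars-1 in replicate 2 alone, and neither was called in the pooled list.

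**Figure D4:**
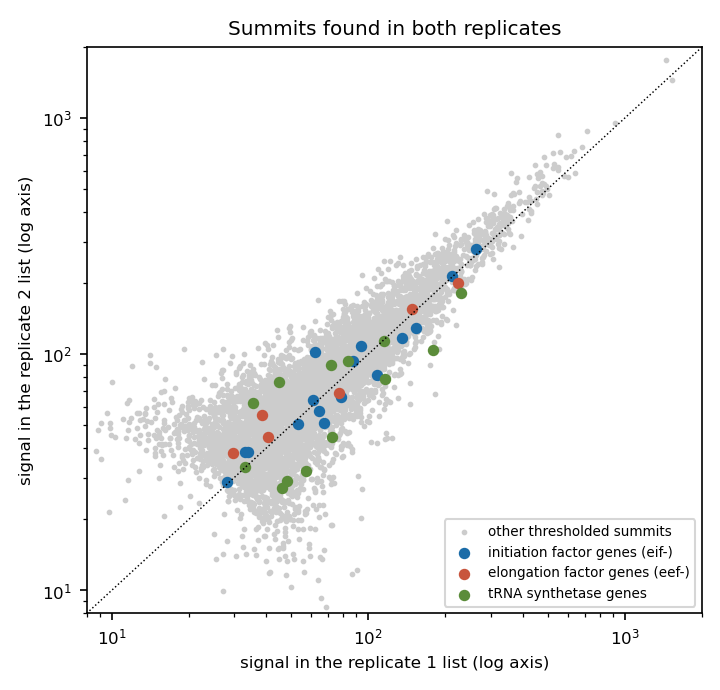
Signal in the replicate 1 list (horizontal axis) and the replicate 2 list (vertical axis), both on log scales, for summits found in both; grey points are other thresholded summits, coloured points those of the genes described here, and the dotted line marks equal values. The coloured points follow the line, with the synthetase summits of sars-2 and ears-2 among those below it.

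Many of these summits stood between neighbouring genes. Of the 36, 21 lay in the promoter window of at least 1 other protein-coding gene, or 58.3%, against 27% of all promoter summits. These shares are not on the same footing. A summit shared by several genes is reached more often when genes are picked, whereas the 27% counts each summit once. For 18 of the 32 occupied genes no promoter summit was the gene's own alone, or 56.2%, against 44% of all occupied genes. The summit of eif-6 was shared with the proteasome subunit gene pbs-2, that of nars-1 with nduf-6, that of ears-2 with uncp-18 and that of eef-1B.1 with aco-2, and at such sites the data do not say which gene the binding serves. Among genes with a divergent neighbour within 1000 bp upstream, 16 of 28 members were occupied, or 57.1%, against 33.5% of all such genes. Where upstream sequence was of neither special kind, 9 of 18 members were occupied, or 50%, against 13%.

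Worm genes are often transcribed in rows from a shared promoter (operons), so a gene inside a row may have none of its own. Of the 62 genes 16 had a neighbour on the same strand that ended within 500 bp upstream, and 7 of them were occupied, or 43.8%, against 10.7% of all genes so placed. Of the other 9, 4 had a summit at the first gene of the row, as did 877 of the 3227 unoccupied genes so placed over the whole annotation. The 4 were eif-2alpha behind phb-1, eif-3.F behind egli-1, iars-2 behind fath-1 and nars-2 behind Y66D12A.21. Counting these, 36 of the 62 genes, or 58.1%, had a summit at their own 5′ end or at the head of their row, against 20.6% of all protein-coding genes. The rows were inferred from spacing alone.

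The number of annotated 5′ ends widens the sequence searched for a gene. Among genes with a single 5′ end 18 of 34 members were occupied, or 52.9%, against 12.9% of all such genes. Among genes with more, 14 of 28 members were, or 50%, against 25.2%. By chromosome, 12 of 21 members on I were occupied, or 57.1% against 23.8% of all genes there, and 7 of 13 on II, or 53.8% against 14%. On III it was 4 of 10, or 40% against 23.8%, and on IV 7 of 10, or 70% against 15.6%. On V, where 9.51% of all genes were occupied, vars-1 was the single one of 7 members, or 14.3%. The only member on X, eef-1A.2, was occupied, as were 16.4% of all genes there. Of the 36 summits 0 lay within 200 bp of a tRNA gene, where 22 of all 2778 promoter summits did, a share too low to set the members apart.

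Other genes of translation were listed outside the naming rule, and those named here were picked after their values were seen. Of 29 listed names 25 were in the annotation, and 14 of these were occupied, or 56%, against 16.2% of all protein-coding genes. The strongest was drr-2, the counterpart of eIF4H, with a signal of 973.1, above any of the 62 genes. It was followed by fars-3 (372.2), the partner subunit of fars-1, gcn-1 (351.0), known from yeast as an activator of a kinase of eIF2, and tufm-1 (250.5), a mitochondrial elongation factor. The scaffold gene ifg-1 (eIF4G) had 205.2. The poly(A)-binding gene pab-1 and the helicase gene inf-1 (eIF4A) had none. By the same measure, cytosolic ribosomal protein genes were at 62 of 78, or 79.5%, proteasome subunit genes at 21 of 33, or 63.6%, and mitochondrial ribosomal protein genes at 30 of 70, or 42.9%. The differences between these groups were not tested, and expression in these embryos was not measured.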

How the data were processed

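Peak lists on ce11 coordinates were used as deposited. The file notes deposited by the authors describe relaxed lists that served as input to IDR, 1 for each of the 2 replicates and 1 for their pool against a control, and a list of the pooled peaks that passed; each relaxed list held 30000 peaks. The read aligner and the peak caller were not given in the sources used here. Each peak has a signal, which is the authors' deposited value, on a scale not stated, and was compared within lists, or between replicate lists for the same summit. The deposited −log10 q was used only to keep relaxed entries of at least 2 in an alternative. The 17 mitochondrial peaks and the ce10 lists were not used. Depth per library is unknown, since the lists hold no read counts.

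A summit was the peak start plus the deposited offset. Genes, 5′ ends of protein-coding transcripts and exons came from the WBcel235 annotation of Ensembl release 115, and product names and sequence from RefSeq for the same build, whose chromosome lengths held all peaks. A summit in the window of several genes was counted for each. A synthetase was placed in a compartment by its RefSeq product name or by certain knowledge, and otherwise left unassigned. Replicate summits were matched within 100 bp. Intervals are exact 95% binomial intervals (Clopper-Pearson); genes that share a summit are not independent. The code was checked on planted summits. Python 3.11.15, pandas 2.3.3 and scipy 1.17.1 were used.

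The members, roles, lists and rule for named genes (all occupied members, with every subunit and synthetase accounted for) were chosen with earlier results of these data known. No test was made and no p-value is given.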

Additional observations from a re-analysis of the deposited data

How the results depend on the processing

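Across 9 alternatives the occupied members numbered 20 to 35, and their share stayed 2.66 to 3.77 times that of all protein-coding genes. With only the 3000 strongest peaks, 20 members were occupied, among them 3 elongation, 7 synthetase and 1 mitochondrial synthetase gene, and 8.57% of all genes. There, 4 of 12 cytosolic or dual and 1 of 6 mitochondrial synthetase genes were occupied, the reverse of the main order. With the window of 500 bp upstream to 100 bp downstream 2 of the 4 cytosolic or dual synthetase genes were left, and as many with each summit given to the nearest 5′ end, which left 24 members. With 1 replicate left out, 29 to 32 members were occupied. Without replicate 1, 5 cytosolic or dual synthetase genes were, and without replicate 2, 4 mitochondrial ones. Alternatives added after seeing the data placed the 13 unassigned synthetases by the number in the gene name, which gave 36.8% for the cytosolic or dual and 41.7% for the mitochondrial genes, or used the product name alone, which gave 30% and 50%. The share of all genes was 12.6% with that narrower window, 21.2% with 2000 bp upstream to 500 bp downstream, 12.55% with the nearest 5′ end, 14.9% with only the outermost 5′ end, 17.3% with any overlap of the peak interval and 17.4% with relaxed entries at a −log10 q of at least 2. GAGAGA within 25 bp was at 2.78% of member summits and 13% of all promoter summits, and within 100 bp at 16.7% and 35%. The cause was not tested beyond what each alternative removes. Median signals were not compared for single replicates, because the scale of their lists is not stated and may differ. No paired analysis was possible because there is a single group. Small classes limit all shares: with 6 elongation genes, a single gene moves the share widely.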
